A study of Mus musculus with 146 samples.

Results

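The collection date written on each macrophage library was examined here as a grouping of its own. All 146 libraries of the study were grouped by that label, and the dates with at least 3 libraries were kept, which left 22 of 28 dates and all but 11 of the 146 libraries. The 6 dates set aside held 2 libraries each, or 1 on 18/08/2011, and 5 of the dates kept held 3. Each library is the RNA of bone marrow-derived macrophages from 1 outbred mouse of the strain Crl:CFW(SW)-US_P08, aged 16 weeks and labelled as having had no treatment. The marrow cells were differentiated for 5 days in medium with 25% L929-conditioned medium and 25% serum. The libraries kept came from 78 mice labelled female and 57 labelled male, and the labels give every date the same strain and no treatment. Because the mice are outbred, the genotypes of 1 date may differ from those of another. A date held 3 to 14 libraries. Libraries were sequenced as 100 bp pairs on 7 plates, and 10 of the 22 dates had libraries on more than 1 plate while 12 were on a single plate. The label gives no more than a date, so the cohort of mice, the batch of medium, the culture and the harvest that shared a date cannot be told apart.

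The dates are used as unordered names. Of the 28 labels, 17 were written with slashes and 11 with dashes. Read as day, month and year, 16 of the 17 slash dates fell on a Thursday. Of the 11 dash dates, 2 read alike both ways and fell on a Thursday, 7 fell on a Thursday only when read as year, day and month, and 2 did so in neither reading. The order in time was therefore not used.

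Total counts ran from 14.5 M to 121 M per library, with a median of 44.3 M, and differed little with date (variance share, defined below, 0.407%) and more with plate (16.6%). The 15 macrophage identity genes summed to between 14100 and 27890 CPM (counts per gene scaled to the library's total) in every library. Markers of T and NK cells summed to 0.589 to 4.31 CPM, and those of B cells to 0.680 to 9.58. Markers of neutrophils and their precursors ranged from 287 to 2533 CPM, with the highest date median, 1948, on 2011-02-06. In 5 of the libraries kept the Y-linked genes went against the labelled sex: 4 of the 8 libraries labelled 2011-07-07 and 1 of the 4 labelled 14/07/2011, all on plate 8. On 2011-07-07 the 2 libraries labelled female had 304 and 283 CPM of Y-linked RNA and the 2 labelled male had 0.0123 and 0.0283. The count of genes within plate 8 and the count over all plates are therefore given with and without these libraries. Whether their date labels are right was not tested.

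Cultured macrophages adjust several programmes to their surroundings. Sterol synthesis is run by the transcription factor SREBP2, which is held back when membrane sterol is plentiful. Shortage of amino acids or stress at the ribosome switches on the integrated stress response through the factor ATF4, which raises amino acid transporters, tRNA synthetases and serine synthesis enzymes. Cell division continues in response to the growth factor CSF1 that L929-conditioned medium supplies, and immediate early genes rise within minutes when cells are handled or given fresh serum.

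Promoters of members of 2 of these programmes, sterol synthesis and the integrated stress response, are shown because their lists had the largest median date shares below. Each is the 250 bases before the RefSeq start (GRCm38.p6), printed along the gene's strand. Mvd, an enzyme of the mevalonate pathway, lies on the minus strand (chr8:122443423-122443672), and Hmgcs1, which makes the substrate of the pathway's rate-limiting step, on the plus strand (chr13:119690101-119690350). Hmgcs1 was chosen for its match after the matches were seen. Capitals mark the CCAAT box (letters CCAAT, or ATTGG on the other strand) and, in Hmgcs1, the sterol element TCACNCCAC.
Mvd: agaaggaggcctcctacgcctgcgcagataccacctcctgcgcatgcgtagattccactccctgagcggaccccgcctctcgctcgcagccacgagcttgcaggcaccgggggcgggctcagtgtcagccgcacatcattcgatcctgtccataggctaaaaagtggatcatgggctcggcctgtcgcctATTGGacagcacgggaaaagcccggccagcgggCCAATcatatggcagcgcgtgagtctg
Hmgcs1: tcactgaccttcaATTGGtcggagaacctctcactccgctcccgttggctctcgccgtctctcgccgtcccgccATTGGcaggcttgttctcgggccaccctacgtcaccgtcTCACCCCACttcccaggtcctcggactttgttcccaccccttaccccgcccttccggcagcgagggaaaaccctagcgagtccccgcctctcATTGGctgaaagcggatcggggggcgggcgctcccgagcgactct
Nupr1, a stress-induced chromatin protein of the ATF4 programme, lies on the minus strand (chr7:126625471-126625720), and capitals mark its match to the amino acid response element TGATGNAA, here on the other strand.
Nupr1: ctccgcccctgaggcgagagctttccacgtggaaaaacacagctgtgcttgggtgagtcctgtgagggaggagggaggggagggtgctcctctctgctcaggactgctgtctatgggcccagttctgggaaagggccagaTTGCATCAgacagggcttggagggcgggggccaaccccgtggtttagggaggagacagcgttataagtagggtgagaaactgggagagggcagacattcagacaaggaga
Both strands were searched in the same window of every gene in the promoter table. CCAAT was found in 14 of the 15 cholesterol biosynthesis genes with an entry (93.3%) and in 37.5% of all 27025 genes. It was also common in other lists, in 81.8% of mitosis genes, 71.4% of sterol sensing and uptake genes, 68.4% of integrated stress response genes and 60% of DNA replication genes with an entry. TCACNCCAC was in 1 of those 15 and in 1.22% of all genes. TGATGNAA was in 5 of 19 integrated stress response genes (26.3%) against 3.91% of all genes. These matches describe the letters in the windows only.

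Most measured genes differed between collection dates after plate was taken into account. A gene's share of variance was taken as the fall in residual mean square when dates are added to a model with sex and plate, so a share under 0 means that the dates explained less than their degrees of freedom cost. Of 10893 genes, 7751 (71.2%) passed an adjusted p of 0.05 for date beyond plate in limma's moderated F test with Benjamini-Hochberg adjustment, on 21 degrees of freedom, and the median share was 16.7%. The share exceeded 25% in 2601 genes and 50% in 103 genes, and was at or under 0 in 392. Plate beyond date called 1335 genes (12.3%) with a median share of 2.66%. The date share was the larger one in 9721 of the 10893 genes, 6701 genes were called for date and not for plate, 1050 for both and 285 for plate and not for date. Among genes called for date, the range of the 22 date medians had a median of 0.527 on the deposited log2 scale. It exceeded 1 in 910 genes and 2 in 73.

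**Figure D1:**
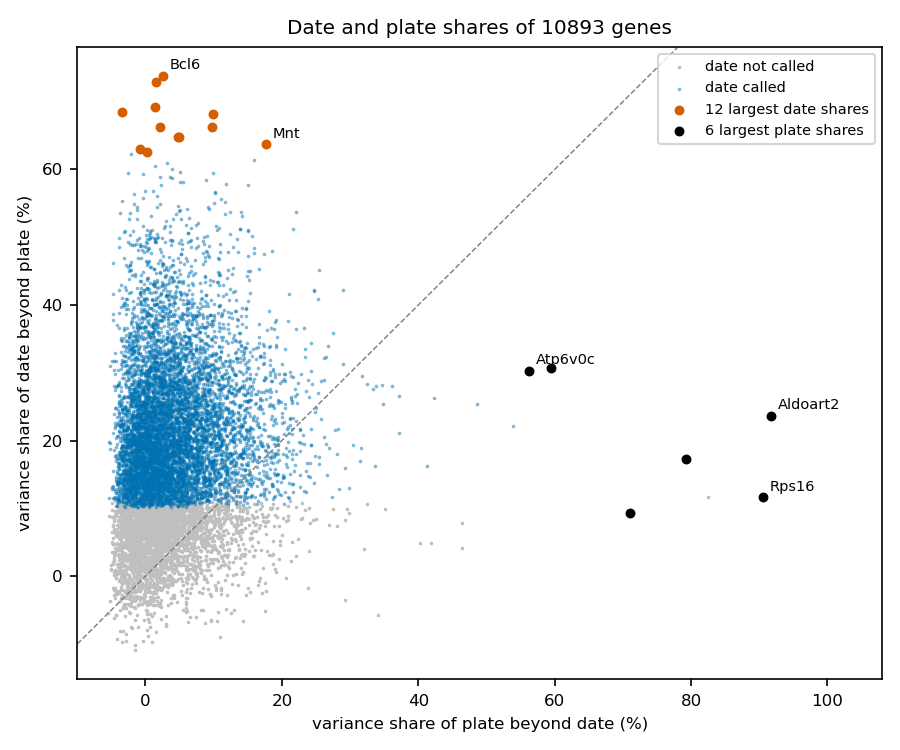
Each point is 1 of 10893 genes, with the share of variance of plate beyond date (%) on the x axis and of date beyond plate (%) on the y axis; blue points passed the test for date. Most points lie above the dashed line of equal shares, and the 6 genes with the largest plate shares lie apart at the right.

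The sequencing lane within a plate went with part of this difference, since 9 of the 25 lanes carried a single date among the libraries kept (7 when the dates set aside are counted too). With lane in place of plate, 3043 genes (27.9%) were called for date, 2942 of them also called beyond plate, and the median share was 9.75%. Lane beyond plate and date called 1.24% of the genes. Without the libraries against their labelled sex 7458 genes were called for date beyond plate, and without both dates that held them 7741. Leaving out the date 22/07/2010 brought the count to 5586 (51.3%), and leaving out plate 2 brought it to 4555.

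The genes with the largest plate shares were of another kind. They were Aldoart2 and Aldoart1, which are retrogenes of the glycolytic enzyme aldolase, the ribosomal protein genes Rps16, Rps7 and Rps27a, and Atp6v0c, a subunit of the vacuolar proton pump. Rps16 had a plate share of 90.6% and a date share of 11.7%. At least 26.3% of the 50-base stretches of each of these 3 ribosomal genes also occur in other genes of the annotation, so their counts are uncertain.

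Bcl6, a transcriptional repressor that restrains inflammatory genes, had the largest share of variance for date (73.8%; limma adjusted p = 7.46e-23), and its plate share was 2.58%. Its gene lies at chr16:23965052-23988852. Bcl6 stood at 9.87, 9.90 and 10.35 in the 3 libraries of 18/05/2011. On 28/10/2010 it stood at 11.64 in the plate 1 library, at 11.74, 11.84 and 11.98 in the 3 plate 3 libraries and at 11.83 in the plate 4 library. These dates did not overlap, but Bcl6 was picked for its date share and 18/05/2011 is its lowest date, so this is no separate support. The dates also share no plate. The 5 libraries of 28/10/2010 lay close together although they came from 3 plates. Next in order came Thap2 (72.8%), which has a THAP-type DNA-binding domain, Chd7 (69.2%), a chromatin remodelling enzyme, Dennd4c (68.4%), which activates Rab proteins in vesicle traffic, and Pcgf3 (68.2%), a Polycomb group protein. They were followed by the phosphate transporter gene Slc20a1 (66.3%), Klf13 (66.2%) and Klf3 (64.8%), which encode zinc finger factors of the Kruppel-like family, and Ttc9c (64.7%). The list ended with Mnt (63.8%), a repressor that competes with MYC for its partner MAX, Trmt1l (63.0%), a relative of tRNA methyltransferases, and Klf16 (62.6%).

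All 12 of these genes had an extreme date median on 18/05/2011, 6 of them their lowest and 6 their highest, and 28/10/2010 held the opposite extreme in 6 of them. Klf13 stood at 13.73, 13.74 and 13.74 on 18/05/2011 and between 12.27 and 12.44 in the 5 libraries of 28/10/2010. Mnt stood at 11.98, 12.10 and 12.11 on 18/05/2011 and between 10.68 and 10.94 on 28/10/2010, and was the 1 gene of the 12 also called for plate (plate share 17.7%, limma adjusted p = 0.00446). The 3 libraries of 18/05/2011 were thus set apart in opposite directions for a repressor of inflammatory genes and for members of the Kruppel-like family. Without 18/05/2011 the 12 shares ran from 52.4% to 65.5% and all 12 genes were still called, but their order changed: Thap2 (65.5%) and Dennd4c (62.5%) then stood above Bcl6 (62.4%, limma adjusted p = 7.46e-15). With lane in place of plate the shares ran from 41.1% (Dennd4c) to 63.8% (Bcl6). Within single plates, each of the 12 genes was called on 2 to 4 of the 6 plates that held several dates. Date called between 0% (plate 4) and 46.5% (plate 2) of all genes on those plates. The 12 were picked for their date share in these same libraries, so neither these calls nor those without 18/05/2011 are independent support.

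**Figure D2:**
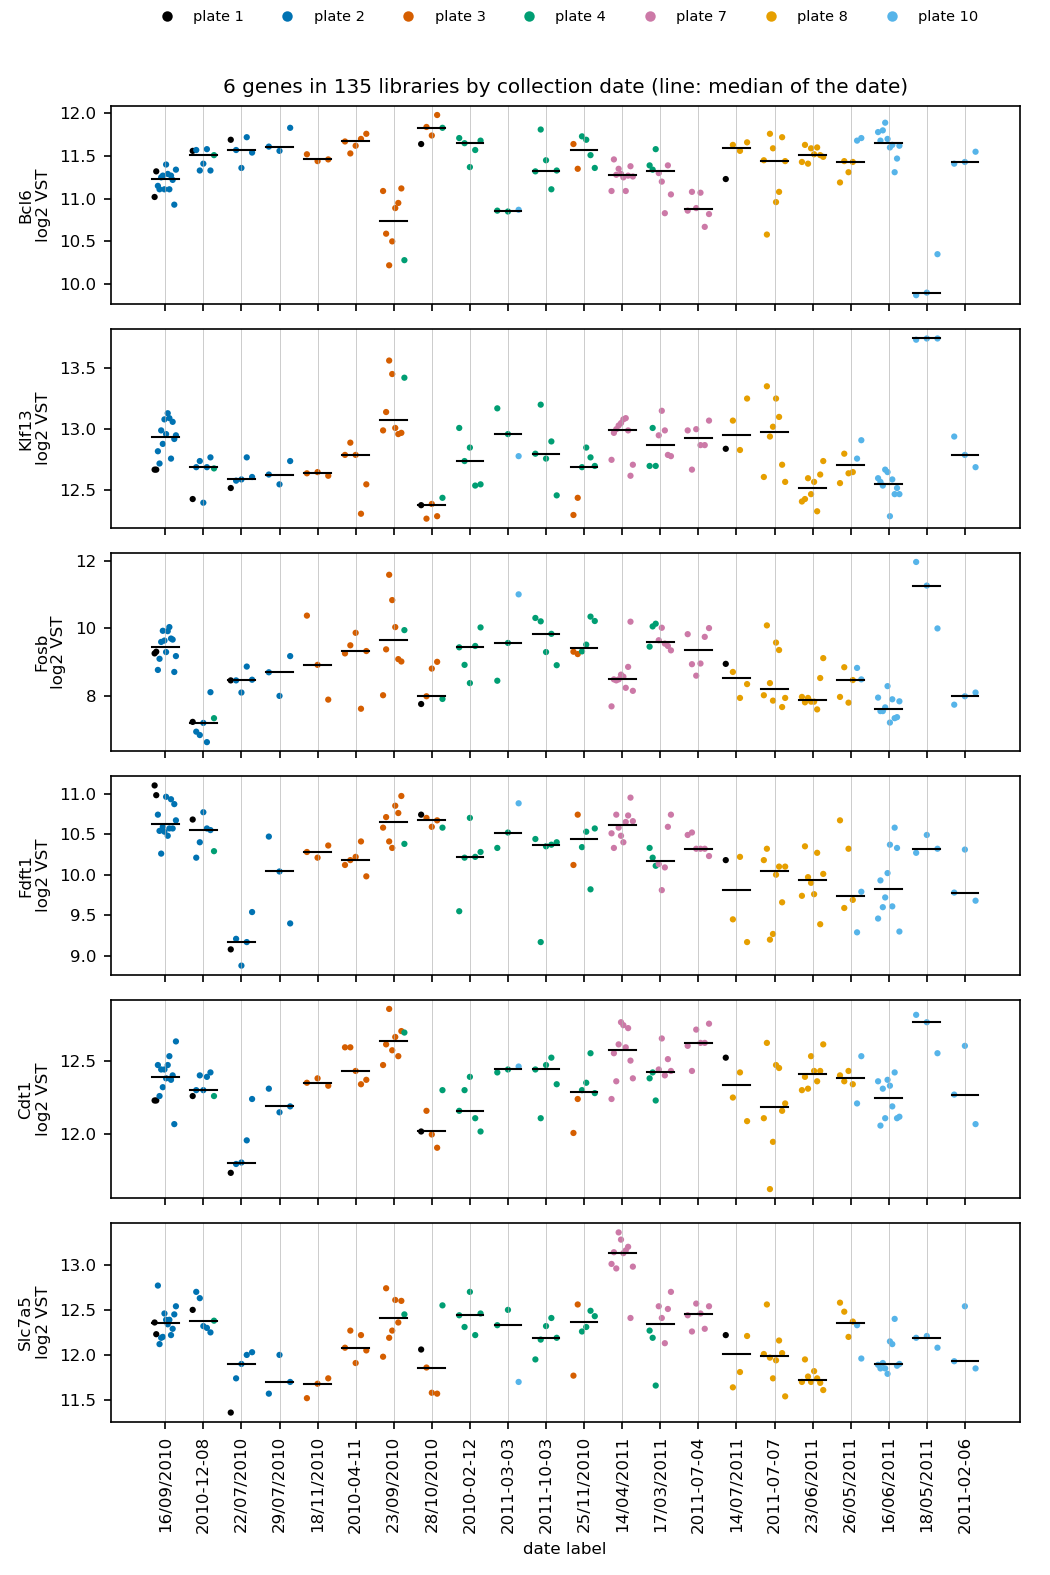
Deposited log2 expression of Bcl6, Klf13, Fosb, Fdft1, Cdt1 and Slc7a5 in each library of a date (points, coloured by plate) for each of 22 dates on the x axis; black lines are the medians of the dates. Bcl6 is lowest and Klf13 highest on 18/05/2011, Fdft1 and Cdt1 are lowest on 22/07/2010, and Slc7a5 is highest on 14/04/2011.

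Cholesterol biosynthesis and the integrated stress response were the gene lists with the largest median date shares over all 22 dates with plate in the model. The lists below are described by how many members passed the test for date, to be read against 71.2% of all genes, and by their median share, to be read against 16.7%. A list score is the mean of its members' standardised values in a library. Of the 20 cholesterol biosynthesis genes 19 were called, with a median share of 43.6%, and the score had a date share of 48.8%. The highest shares were those of Mvd (51.7%), Dhcr7 (50.6%), which makes the last step to cholesterol, Fdft1 (49.3%), the first committed step to sterols, and Fdps (48.9%), which makes farnesyl diphosphate. The member that did not pass was Tm7sf2, a sterol reductase (6.67%, limma adjusted p = 0.139). Fdft1 and Fdps share over 20% of their 50-base stretches with other genes, so their counts are uncertain. Of 10 genes of sterol sensing and uptake 8 were called (median share 35.5%), among them Srebf2, which encodes SREBP2 itself (50.3%), and Insig1 (48.7%), which retains SREBP2 in the endoplasmic reticulum. Scap, the escort of SREBP2, had a share of -1.28%. Without 22/07/2010 the cholesterol list kept a larger median share than all genes, 24.6% against 12.3%, with 17 of 20 called and a score share of 26.9%. With lane in place of plate 17 of 20 were called, and the median share fell to 23.9% and the score share to 27.8%. The order of lists changed in both settings. Kruppel-like factors, a list added after single genes had been seen, had 11 of 11 called (median share 40.0%). Without 22/07/2010 their median share was 37.6%, that of the integrated stress response 34.8% and that of immediate early genes 31.0%, all above cholesterol. With lane, Kruppel-like factors had 32.8%, replication genes 22.7% and the integrated stress response 19.55%.

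All 20 measured genes of the integrated stress response were called, with a median share of 40.5% and a score share of 56.6%, the largest score share among the lists of 5 or more genes. Slc7a5, a transporter of large neutral amino acids, had a date share of 51.0%, the proline synthesis gene Aldh18a1 and Nupr1 followed, and the mitochondrial folate enzyme gene Mthfd2 had 49.1%. These 4 genes had their highest date median on 14/04/2011. Over its 10 libraries, all on plate 7, Slc7a5 had a lowest value of 12.41, a median of 13.14 and a highest value of 13.36. Its date medians on the other dates lay between 11.68 and 12.45. The list's score share stayed at 41.1% without 14/04/2011, was 57.2% without 22/07/2010 and fell to 15.6% with lane in place of plate. Of the 10 libraries of 14/04/2011, 6 filled a lane and 4 shared another with 2 libraries of 2011-06-05, a date set aside, so among the libraries kept that date and its lanes cannot be told apart. Of 20 aminoacyl-tRNA synthetase genes, a list chosen after single genes had been seen, 18 were called (median share 32.5%), and Nars (54.2%), Aars, Yars and Cars also had their highest medians on 14/04/2011.

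All 26 DNA replication genes were called, with a median share of 27.9% and a score share of 32.8%, and 23 of 25 mitosis genes (median 21.7%). The leading replication genes were Cdt1 (44.3%), which licenses origins, Uhrf1 (41.5%), which maintains DNA methylation after replication, Cdc6 (40.2%) and Mcm7 (40.0%, counts uncertain), a subunit of the replicative helicase. This list depended on 1 date: without 22/07/2010, 11 of 26 were called, with a median share of 10.7% against 12.3% for all genes. Mitosis genes came to the level of all genes as well, with 13 of 25 called (median 12.4%) against 51.3%. All 23 immediate early genes were called (median 32.9%), led by Fosb (54.1%), an AP-1 subunit. The inflammatory and NF-kB list had 17 of 17 called (27.6%), with Nfkbiz (40.9%) and Tnf (36.7%) in front, glycolysis had 16 of 16 (22.8%), and endoplasmic reticulum stress 16 of 19 (21.9%), led by Herpud1 (48.2%), which works in the degradation of misfolded proteins, and Xbp1 (44.9%), the factor of the unfolded protein response. The score share of that list was 27.3%, and 17.3% without 18/05/2011. With lane in place of plate, where 27.9% of all genes were called, 25 of 26 replication genes passed, 17 of 23 immediate early genes, 14 of 25 mitosis genes, 10 of 17 inflammatory genes, 10 of 19 endoplasmic reticulum stress genes, 12 of 20 integrated stress response genes and 6 of 16 glycolysis genes. The score share of the inflammatory list fell from 34.0% to 12.3%.

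Further lists had median shares above that of all genes. They included Toll-like receptors and adaptors (26.6%, 15 of 20 called), fatty acid synthesis (23.1%, 11 of 14) and arginine and polyamine metabolism (22.2%, 6 of 10). LXR targets and sterol efflux (21.1%, 12 of 13) and hypoxia (20.6%, 15 of 17) did so too. With lane in place of plate 7, 3, 5, 4 and 7 of their genes were called, in this order. The lists that follow stood near or under all genes. Of 25 interferon response genes 4 were called, with a median share of 5.78%, and the highest share was that of Oasl1 (11.6%, limma adjusted p = 0.0328). The date medians of Oasl1 nevertheless ran from 7.00 to 9.24, so the spread within dates was wide. Genes of MHC class I had 3 of 11 called (6.88%), those of neutrophils and their precursors 7 of 14 (10.1%), those of monocytes and early progenitors 5 of 8 (10.7%) and lysosomal genes 13 of 25 (12.3%). Among 15 macrophage identity genes 13 were called (19.9%). Maf, a factor of macrophage identity, had a date share of 51.7%, with medians from 12.87 on 18/05/2011 to 14.46 on 16/06/2011, whereas the lysosomal marker gene Cd68 had 2.22%. In RNA from whole cultures, fewer cells of a type and less RNA per cell cannot be told apart.

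Of 16 measured clock genes, a list chosen after single genes had been seen, 14 were called (median share 25.7%). Per1, a repressor within the circadian clock that is also induced quickly by outside signals, had the largest share of them (56.5%, limma adjusted p = 4.82e-13). Its VST values were 10.70, 10.52 and 10.11 in the 3 libraries of 18/05/2011, and ran from 9.06 to 9.56, with a median of 9.27, in the 10 libraries of 16/06/2011 on the same plate. The values of those dates did not overlap. The next highest date was 23/09/2010, whose 8 libraries had a lowest value of 9.65, a median of 9.98 and a highest value of 10.66. Tnf, the gene of an inflammatory cytokine, varied more within dates. Its values on 2011-03-03, the date with its highest median, were 10.66 and 11.05 on plate 4 and 12.67 on plate 10, and a value of 12.10 occurred on 14/04/2011, where the median was 10.47. Its share was 17.0% with lane in place of plate (limma adjusted p = 0.0308), against 47.0% for Per1 (adjusted p = 1.22e-06).

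**Figure D3:**
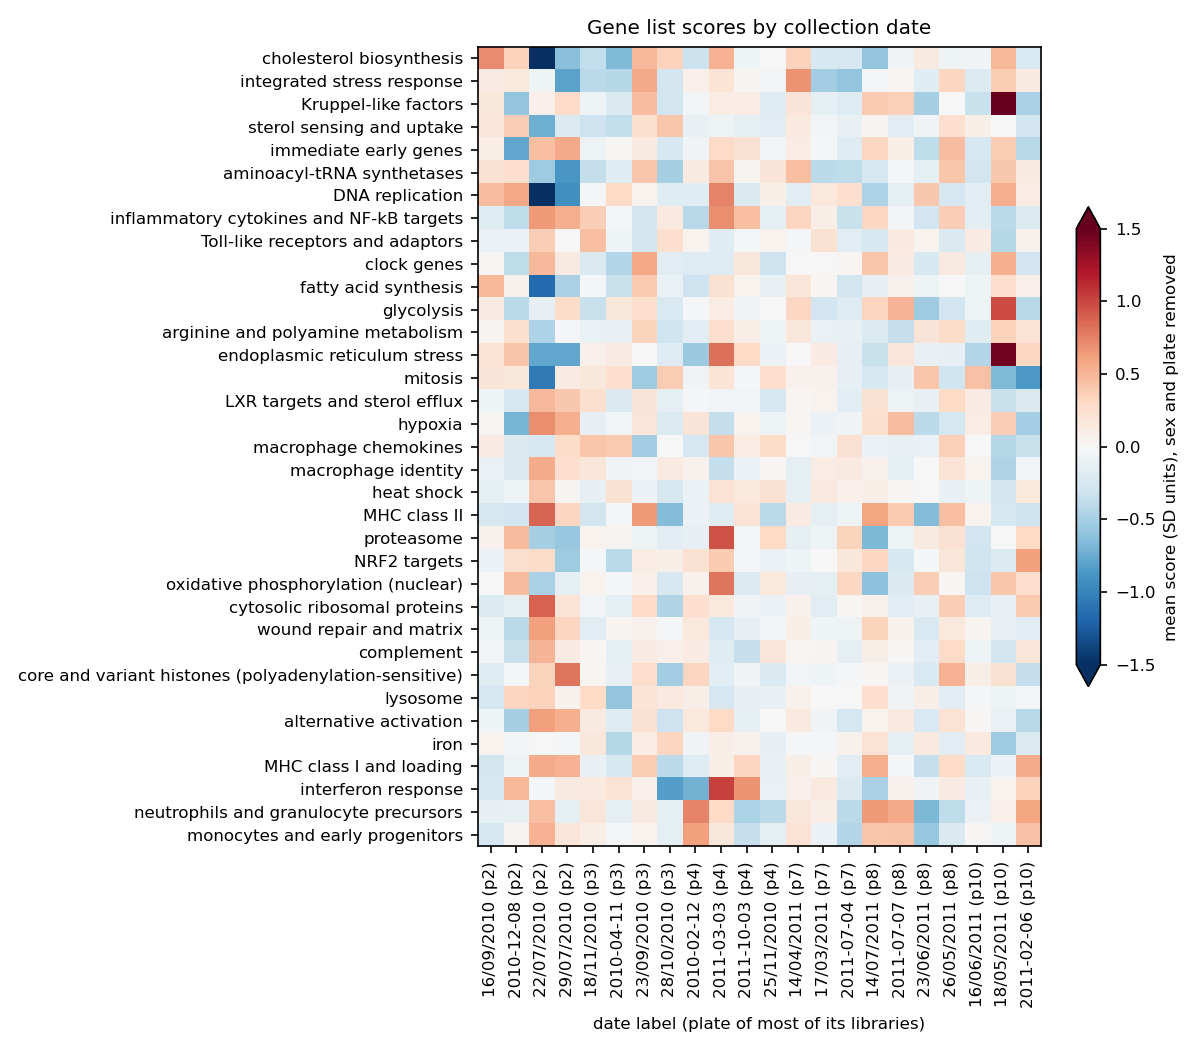
Mean score of each gene list (rows, ordered by the median date share of their genes) on each of 22 dates (columns, with the plate of most of its libraries), in SD units after sex and plate were removed; blue is low and red is high. The darkest blue cells are cholesterol biosynthesis (-1.93) and DNA replication (-1.93) on 22/07/2010.

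Each date with at least 3 libraries on a plate was then compared with the other such dates of that plate, which gave 22 comparisons tested together. Comparisons on 1 plate share libraries, so a date far from the rest moves the others the opposite way. Lane was not part of the model for these comparisons. The number of genes called ran from 29 (0.266%) to 1204 (11.1%) in 17 of the comparisons and was larger in 5.

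**Figure D4:**
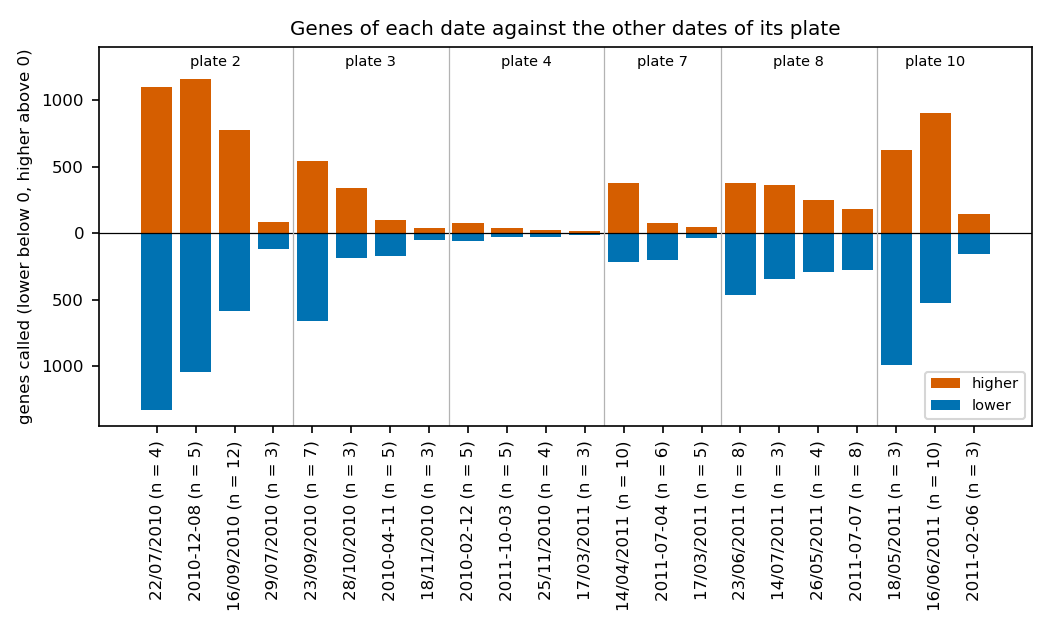
Number of genes called higher (orange, above 0) and lower (blue, below 0) in each of 22 comparisons of a date with the other dates of its plate, labelled by date and number of libraries. The largest bars belong to 22/07/2010 and 2010-12-08 on plate 2, and the next to 18/05/2011 on plate 10.

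The libraries of 22/07/2010 on plate 2 had lower sterol synthesis and replication genes, and higher Sdc1, Thbs1 and Vegfa, than the other dates of the plate. Against 16/09/2010, 29/07/2010 and 2010-12-08, 1102 genes (10.1%) were higher and 1332 (12.2%) lower in the 4 libraries. All 4 lay on 1 lane, which held libraries of 1 other date, 29/07/2010. On this plate 22/07/2010 and its lane can therefore be told apart only through 29/07/2010. Of the 20 cholesterol biosynthesis genes 19 were lower, with a median difference of -0.71 on the log2 scale against -0.0018 for all genes, and the other was Tm7sf2 (0.16). Fdft1 stood at 8.88, 9.17, 9.21 and 9.54 in these libraries and at 9.08 in the plate 1 library of the date. The difference was -1.18 (SE 0.169, limma adjusted p = 6.89e-07). The plate 2 values overlapped those of 29/07/2010, whose lowest was 9.40, and lay below every library of 16/09/2010, whose lowest was 10.26. Fdps was lower by -1.10, Dhcr7 by -0.65 and Mvd by -0.53. All 26 replication genes were lower (median -0.63), among them Uhrf1 (-0.80), Cdc6 (-0.72), Mcm7 (-0.67) and Cdt1 (-0.38). Cdt1 stood at 11.80, 11.81, 11.96 and 12.24, and at 11.74 in the plate 1 library. Of 25 mitosis genes 12 were lower, such as Bub1 (-0.65), and 1 was higher.

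The genes with the largest rise on 22/07/2010 were Sdc1 (2.51, SE 0.509, limma adjusted p = 5.17e-04), a heparan sulfate proteoglycan, Thbs1 (2.27), the matrix protein thrombospondin, Vegfa (2.27), an angiogenic factor, Klk1b11 (2.19) and Mefv (1.97), which encodes pyrin. Vegfa stood at 13.04, 14.19, 14.36 and 14.41, and at 14.30 in the plate 1 library. The largest falls were those of Ch25h (-2.11), which makes 25-hydroxycholesterol, Clstn1 (-1.59), Nes (-1.47), Fdft1 and Zfp618 (-1.16). Ribosomal protein genes were higher in 18 of 47 (median 0.23), wound repair and matrix genes in 7 of 22, hypoxia genes in 7 of 17, with 1 lower, and macrophage identity genes in 5 of 15. Markers of neutrophils and their precursors were also higher there: the 17 genes summed to a median of 1213 CPM (955 to 1408) against date medians of 618 to 808 on the other dates of the plate, and 4 of the 14 tested were higher. Osteoclast markers summed to 407 (371 to 541) against 254 to 398, and 3 of 8 tested genes were higher. Dendritic cell markers summed to 65.1 (52.0 to 132.6) against 29.4 to 42.8, and those of monocytes and early progenitors to 3677 (3506 to 3870) against 1521 to 3590, with 1 of 8 tested genes higher (median difference 0.90). The part of these cells in the result was not tested. Removing replicate 3 or replicate 4 of the date left 1255 or 1483 genes called, with 18 of 20 cholesterol genes lower in both cases and 21 and 22 of 26 replication genes. Other counts rested on single libraries. Ribosomal protein genes were higher in 5 without replicate 3 and in 11 without replicate 2, wound repair and matrix genes in 3 without replicate 4 and 4 without replicate 2, and macrophage identity genes in 2 without replicate 2 and 3 without replicate 3 or replicate 4. No neutrophil or osteoclast marker was higher without replicate 2, 1 osteoclast marker was higher without replicate 3 or replicate 4, and 7 mitosis genes were lower without replicate 3. When 2010-12-08 was not compared 1403 genes were called, with 19 cholesterol and 19 replication genes lower, and when 29/07/2010 was not compared 3608.

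The libraries of 18/05/2011 on plate 10 had higher Fosb and lower Bcl6 and Dusp6 than the other dates of the plate. Against 16/06/2011 and 2011-02-06, 627 genes (5.76%) were higher and 993 (9.12%) lower in the 3 libraries. Fosb was higher by 3.27 (SE 0.430, limma adjusted p = 6.52e-08). It stood at 9.99, 11.26 and 11.96 on 18/05/2011, and between 7.20 and 8.28 in the 10 libraries of 16/06/2011, with no overlap. Bbc3 (1.38), a p53 target that promotes cell death, Klf11 (1.32), Creb5 (1.29) and the receptor gene Epha2 (1.28) followed. Bcl6 was lower by -1.52 (SE 0.127, limma adjusted p = 1.35e-15) and Dusp6, a phosphatase that restrains ERK signalling, by -1.46 (SE 0.153, limma adjusted p = 3.49e-11). Ankrd37 (-1.69), Clba1 (-1.48) and the glycogen regulator gene Ppp1r3b (-1.35) were lower as well. Dusp6 stood at 11.16, 11.52 and 12.06. Of 11 Kruppel-like factor genes, a list added after Klf13, Klf3 and Klf16 had been seen, 8 were higher (median 0.97). Of 19 genes of endoplasmic reticulum stress 10 were higher (median 0.45), with Herpud1 at 0.92, Pdia6 at 0.61, Manf at 0.59 and Xbp1 at 0.32. Herpud1 stood at 11.25, 11.25 and 11.61 on that date. Glycolysis genes were higher in 7 of 16 and immediate early genes in 8 of 23, with 2 lower. The count of endoplasmic reticulum stress genes rested on single libraries and on 1 date: 2 of the 19 were higher without replicate 1, 7 without replicate 2 and 5 without replicate 3, and when 16/06/2011 was not compared 1 was higher and 917 genes were called in all. Immediate early genes were higher in 5 without replicate 1 and 3 without replicate 2. Kruppel-like factor genes were higher in 5 of 11 without replicate 1, in 6 or 7 without another library and in 7 without 16/06/2011. The 3 libraries lay on 2 lanes with 5 other dates, 3 of them among those kept, and their sums of macrophage (15100 to 21260) and neutrophil markers (759.9 to 1341 CPM) overlapped those of 16/06/2011 (15660 to 21060 and 571.1 to 1360).

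Libraries of 23/09/2010, which were run on plates 3 and 4, lay on the same side as those of 18/05/2011 for these genes, though less far out. Klf13 ran from 12.96 to 13.56 over the 8 libraries, Bcl6 from 10.22 to 11.12 and Chd7 from 11.61 to 12.22. Bcl6 had its second lowest date median there and Klf13 and Chd7 their second highest. The plate 4 library of the date had values inside those ranges, 10.28 for Bcl6, 13.42 for Klf13 and 12.15 for Chd7. The Kruppel-like factor score was wide within this date, from -0.53 to 1.92 over the 7 libraries of plate 3, with 1.05 in the plate 4 library.

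In the 5 libraries of 2010-12-08 on plate 2, Fosb, Vegfa and Sdc1 were lower and Ch25h higher than on the other dates of the plate. Against the other dates of the plate 1156 genes (10.6%) were higher and 1046 (9.6%) lower. Of 23 immediate early genes 12 were lower (median -0.43), among them Fosb (-1.72) and Fosl1 (-0.99, counts uncertain). Fosb stood at 6.62, 6.83, 6.93, 7.19 and 8.10, and at 7.22 and 7.33 in the libraries of the date on plates 1 and 4, against 8.70 to 10.03 in the 12 libraries of 16/09/2010 on plate 2. Of 17 hypoxia genes 11 were lower and 1 higher. Vegfa had the largest fall (-2.68, SE 0.482, limma adjusted p = 7.88e-05), followed by Sdc1 (-2.19), the proton pump gene Atp6v0d2 (-2.16), the lipid droplet gene Hilpda (-1.95) and Ankrd37 (-1.95). Vegfa stood at 9.30, 10.08, 10.53, 10.66 and 11.06, below every library of 22/07/2010. The largest rises were those of Ch25h (1.84), the potassium channel gene Kcnj10 (1.5), Rtp4 (1.49), Pmepa1 (1.42) and Oasl2 (1.33). Rtp4 and Oasl2 are interferon-induced, and 9 of the 25 interferon genes were higher (median 0.64). Rtp4 stood at 9.33, 10.35, 10.53, 10.58 and 11.13 on plate 2, but at 9.47 and 8.61 in the libraries of the date on plates 1 and 4. The interferon count rested on single libraries: it was 1 to 3 when any of replicates 2 to 5 was left out and 10 without replicate 6. Immediate early genes were lower in 10 to 12 when 1 library was left out, and hypoxia genes in 7 without replicate 3 or replicate 4. Without replicate 5, 1464 genes were called in all. Replication genes were higher in 24 of 26 and cholesterol genes in 12 of 20 (6 without replicate 4), with 1 lower, but without 22/07/2010 among the dates compared 9 of 26 replication genes were higher, no cholesterol gene passed (median 0.17 instead of 0.40) and 862 genes were called. Immediate early genes were then lower in 13 of 23.

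Maf was higher on 16/06/2011 (10 libraries) than on the other dates of plate 10, and 902 genes (8.28%) were higher and 526 (4.83%) lower. Maf differed by 1.21 (SE 0.129, limma adjusted p = 4.64e-11), with 13.55 as its lowest and 14.66 as its highest value, all above the 3 libraries of 18/05/2011 (12.76, 12.87 and 12.99). The highest value of 2011-02-06, the other date compared, was 13.61, so those dates overlapped. Ankrd37 (1.53), Ppp1r3b (1.18), the adhesion gene Flrt2 (1.16) and the chromatin architecture gene Hmga2 (1.03) were higher. Fosb (-1.85), Zfp618 (-1.58), the lipid receptor gene Gpr132 (-1.03) and Il1b (-0.91) were lower. Mitosis genes were higher in 14 of 25 and endoplasmic reticulum stress genes lower in 12 of 19. When 18/05/2011 was not compared, 305 genes were called, with 7 mitosis genes higher and 1 endoplasmic reticulum stress gene lower.

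On 16/09/2010 (12 libraries of plate 2), 775 genes (7.11%) were higher and 589 (5.41%) lower than on the other dates of the plate. These libraries filled 2 lanes that held no other date, so on this plate that date and its lanes cannot be told apart. Fosb (1.37), Clstn1 (0.88), and the sterol genes Acat2 (0.82), Fdft1 (0.80) and Fdps (0.77) had the largest rises, and 19 of 20 cholesterol genes were higher. Acat2 shares 39.1% of its 50-base stretches with other genes, so its counts are uncertain, like those of Fdft1 and Fdps. The largest falls were those of the interferon-induced genes Rtp4 (-1.13) and Usp18 (-0.96), the sterol exporter gene Abcg1 (-0.93), the serotonin receptor gene Htr2b (-0.87) and the inositol transporter gene Slc5a3 (-0.86). When 22/07/2010 was not compared, 383 genes were called and 7 of 20 cholesterol genes were higher.

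Dates were also compared inside each plate on its own. Date called 5060 genes (46.5%) within plate 2, 1614 (14.8%) within plate 10, 1040 (9.55%) within plate 3, 411 (3.77%) within plate 8 and 297 (2.73%) within plate 7. Without the libraries against their labelled sex the count on plate 8 was 37. Within plate 4 limma called 0 genes (0%), with 876 at an unadjusted p under 0.05, and edgeR's quasi-likelihood test called 0, with 991. Cholesterol genes were called in 19 of 20 within plate 2, 13 within plate 3, and 2 each within plates 7 and 10. The integrated stress response genes had another order of plates: 16 of 20 were called within plate 7, 13 within plate 2, 9 within plate 3 and 6 within plate 10. Replication genes were called in 26 of 26 within plate 2 and in at most 5 on any other plate. Immediate early genes were called in 18 of 23 within plate 2 and 12 within plate 10, mitosis genes in 12 of 25 within plate 10 and endoplasmic reticulum stress genes in 11 of 19 there. Interferon genes were called in 15 of 25 within plate 2, although 4 were called over all plates.

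One library of plate 4, replicate 2 of 2011-10-03, lay apart from the other 4 of its date. Its DNA replication score was -3.52 against 0.541 to 0.658, and its root mean square distance to the mean of its date, 0.509, was the largest of all libraries kept (median 0.217). Its depth, 41.2 M counts, was near the median. Without it 2 genes were called within plate 4 (1742 at an unadjusted p under 0.05), 8078 genes were called for date beyond plate, and the replication score had a date share of 42.9%.

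The dates with libraries on several plates allow a direct comparison. Over pairs of libraries, the median root mean square difference over all genes was 0.205 for the same date and plate (341 pairs), 0.218 for the same date on different plates (89 pairs), 0.238 for different dates on the same plate (1005 pairs) and 0.252 when both differed (7610 pairs). Libraries that shared a date across plates were therefore closer than libraries that shared a plate across dates. The same order held for 7989 of the genes (73.3%), taken singly. For Bcl6 the difference was 0.281 for the same date on different plates and 0.583 for different dates on the same plate. In the median over all genes, sharing a lane made a small difference. It was 0.233 for different dates in the same lane (117 pairs) and 0.210 for the same date and plate in different lanes (148 pairs). List scores varied in this. The integrated stress response score differed by 0.738 for different dates on the same plate and by 0.565 in the same lane. These values were 0.863 and 0.733 for the inflammatory score, 1.13 and 1.09 for cholesterol, and 1.27 and 1.33 for replication. These pairs share libraries, so the values are a description with no test.

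Scores in this paragraph are given after sex and plate were removed. Plate was removed without date in the model, so a date's value on a plate also depends on the other dates there. The cholesterol score of 22/07/2010 was -2.12 in its plate 1 library and -1.88 as the mean of its 4 plate 2 libraries. The replication score was -2.37 and -1.81. Other dates were less alike across plates. On 26/05/2011 the cholesterol score was -0.74 over 2 libraries of plate 10 and 0.26 over 4 of plate 8. The inflammatory score of 2011-03-03 was 2.02 in its plate 10 library and 0.036 over 2 libraries of plate 4.

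**Figure D5:**
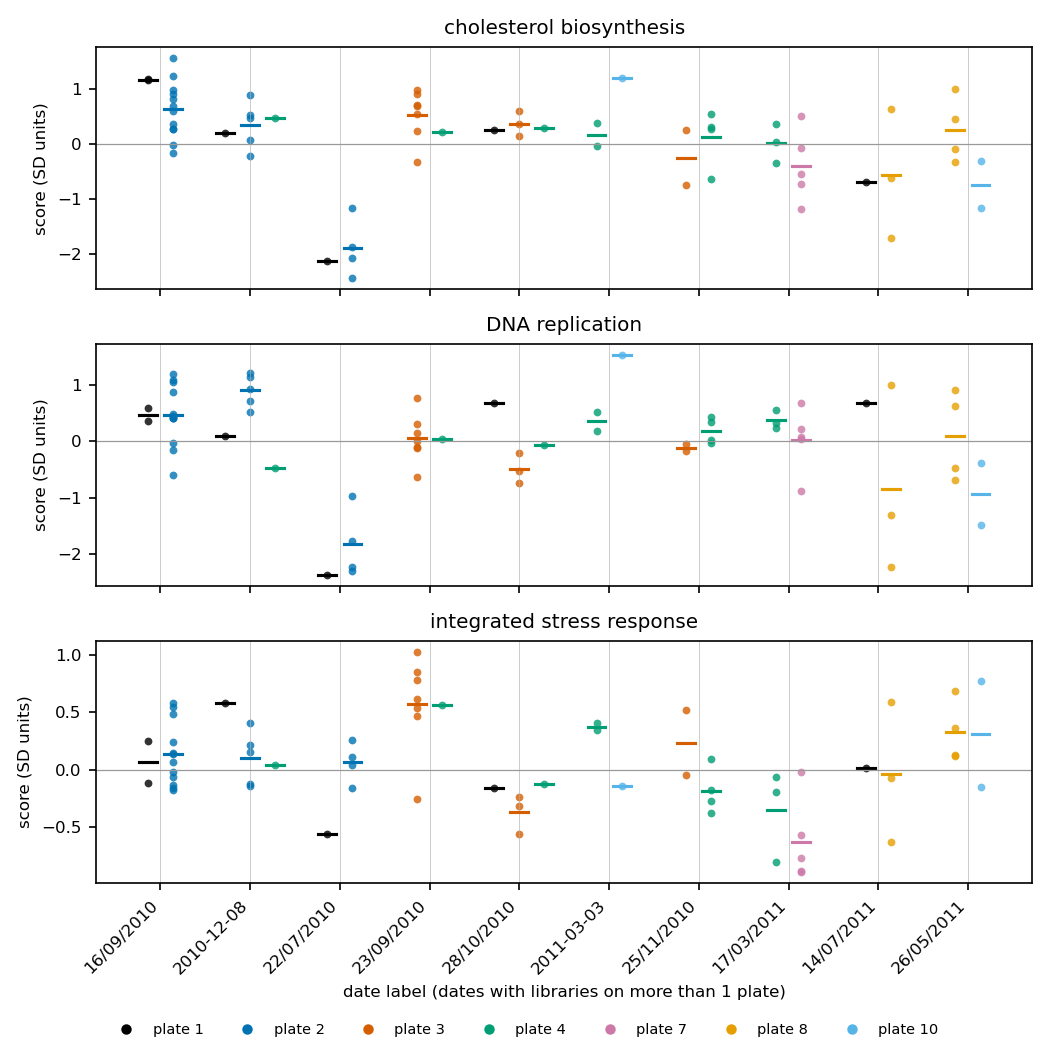
Scores (SD units) of the cholesterol biosynthesis, DNA replication and integrated stress response lists for the 10 dates with libraries on more than 1 plate; points are libraries, coloured by plate, and short lines the mean of each plate. The libraries of 22/07/2010 are low for the first and second list on both of its plates.

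A principal component analysis of the libraries kept was made on scaled genes after sex and plate were removed. The first component held 22.0% of the remaining variance and had a date share of 20.6%. Its correlation with the replication score, also with sex and plate removed, had a size of 0.902 over these libraries. The third component held 7.20% of the remaining variance and had a date share of 48.0%. The third was the one with the largest date share among the first 8 components.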

How the data were processed

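RNA from 146 macrophage cultures was sequenced (TruSeq libraries, 6 per lane), and reads were processed by the authors with FastQC, TopHat2 2.0.11, HTSeq 0.6.1 and DESeq2 on GRCm38/mm10, per the submitters' processing notes. The authors deposited a table of read counts per gene (22721 genes) and a table of log2 values after a variance-stabilising transformation (10893 genes, each with at least 5 counts in every library). Counts here gave depth, marker sums in CPM and an alternative test. The log2 values of the deposited table were used in all other results. Differences on the transformed scale are close to log2 fold changes for abundant genes and understate those of low genes.

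Libraries were grouped by the collection date of their labels. limma 3.58.1 (R 4.3.3) tested date in a model with labelled sex and plate, then dates within each plate, and then each date against the mean of the other dates of its plate, with Benjamini-Hochberg adjustment over all genes and, in the last case, over genes and all 22 comparisons. edgeR 4.0.16, lane, depth, marker and replicate alternatives were tried. Where nothing says that replicates were separate cultures, p-values measure only the spread between libraries; here each is labelled as 1 mouse. The script for the test was checked on simulated data. Named genes are the 12 with the largest date share, the 6 with the largest plate share, the 4 with the smallest p and the 1 with the smallest share in each list, and the 5 most raised and 5 most lowered in the 5 comparisons with most calls; Gm, Rik and Y-linked names were skipped. Cases outside that rule are Hmgcs1 and the counts of members. Members and lists were chosen with earlier results of these data known, and promoter letters were searched after the lists had been seen. A named gene is called uncertain where at least 20% of its 50-base stretches occur in another gene (25 of 231 checked). Python 3.11.15, numpy 2.4.6, pandas 2.3.3 and matplotlib 3.10.9 were used for tables and figures.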

Additional observations from a re-analysis of the deposited data

Results flagged for a closer look

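For the 12 leading genes and 5 list scores followed by library (cholesterol biosynthesis, DNA replication, integrated stress response, immediate early genes and interferon response), 272 groups of 4 to 10 libraries of 1 date were searched for a library far from the rest. The gap to the nearest library was compared with the whole range of the date by Dixon's criterion. It marked 15 values (5.51%), and chance marks about 5% of groups, so the number is close to what chance gives. The 15 values came from 13 libraries.

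Replicate 2 of 2011-10-03 was marked for 2 scores. Its DNA replication score was -3.52 against 0.541 to 0.658 in the other 4 libraries of the date, and its cholesterol score was -1.52 against 0.123 to 0.509. The cholesterol score of replicate 9 of 14/04/2011 was 1.44 against 0.00246 to 0.666. Replicate 5 of 17/03/2011 had a replication score of -0.878 against 0.0343 to 0.676. The stress response score was 0.380 in replicate 2 of 23/06/2011 against -0.370 to -0.0526, and -0.254 in replicate 1 of 23/09/2010 against 0.465 to 1.03. The immediate early score of replicate 3 of 28/10/2010 was -0.551 against -0.223 to -0.112.

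Among single genes, replicate 3 of 23/09/2010 was marked for 2 genes, with Dennd4c at 12.51 against 12.88 to 13.17 and Ttc9c at 10.53 against 10.83 to 11.10. Chd7 stood at 11.83 in replicate 4 of 14/07/2011 against 11.40 to 11.44, and at 11.50 in replicate 3 of 22/07/2010 against 11.32 to 11.36. Pcgf3 stood at 11.17 in replicate 2 of 26/05/2011 against 11.44 to 11.51. Klf3 stood at 11.17 in replicate 4 of the same date against 10.83 to 10.95. Klf13 stood at 12.29 in replicate 6 of 16/06/2011 against 12.47 to 12.67. Mnt stood at 10.36 in replicate 1 of 22/07/2010 against 10.76 to 10.86. The library of 22/07/2010 with the low Mnt value is the one on plate 1, and Mnt is the gene of the 12 that was also called for plate.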

How the results depend on the processing

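The number of genes called for date beyond plate, 7751, was 3043 with lane in place of plate and 4555 without plate 2. It stayed between 5586 and 8083 when 1 date was left out and between 7261 and 8225 when 1 library of a small date was left out. With edgeR it was 8199 (TMM) or 8236 (size factors) of 13359 genes, with limma on log2 CPM 8067 or, with no filter on low counts, 8131, with depth as a covariate 7822, with the granulocyte precursor score 7885, with dates of at least 5 libraries 7421, with all 28 dates 8034, with no intensity trend 7738 and with no plate term 9821. Plate beyond date, 1335, was 541, 735, 2149, 863 and 305 without plates 1, 2, 4, 8 and 10, and 928 to 1617 without 1 library. Within plate 8 the count of 411 was 37 without the libraries against their labelled sex, and within plate 4 it was 2 without replicate 2 of 2011-10-03. For single dates, 22/07/2010 gave 1255 to 2416 genes without 1 of its libraries and 1403 when 2010-12-08 was not compared; 2010-12-08 gave 1464 to 2407 and, when 22/07/2010 was not compared, 862; 18/05/2011 gave 1182 to 1215 and, when 16/06/2011 was not compared, 917. The count for 16/06/2011 was 305 when 18/05/2011 was not compared. For 16/09/2010 it was 2049 with 1 fit per plate, 2621 when 2010-12-08 was not compared and 383 when 22/07/2010 was not compared. Leaving out other dates, removing both dates with libraries against their labelled sex, lane beyond plate and the outlying library were chosen after seeing the data. For the moved counts with fewer libraries or dates, the smaller comparison is part of the alternative; in the other cases the cause was not tested. All 12 leading genes stayed called for date with lane, depth or the granulocyte precursor score, although with lane their shares ran from 41.1% to 63.8%. With lane, 13 of 34 list scores moved by more than a jackknife spread, taken from leaving out 1 date at a time. The counts and variance shares over all dates have no direction that could change, but those of single dates do. Genes also called in the same direction in the full comparison were 1322 of the 1403, 810 of the 862, 866 of the 917 and 232 of the 305. For 16/09/2010 they were 1215 of the 2621 and 326 of the 383. The others were not called in the full comparison or differed in direction. For the 3 dates whose list medians were recomputed with 1 library left out, 21 of 444 medians changed sign. None of the 21 belongs to a list whose median for that same date is given above. The largest of the 21 in the full comparison had a size of 0.291. No paired analysis was possible because the labels give no replicate numbers to pair libraries across dates. Dates with 3 libraries, the lanes that held 1 of the dates kept and the share of low genes left out of the deposited log2 table limit what can be told apart here.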
